A study of Mus musculus with 6 samples.

Results

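Kdelr1, Kdelr2 and Kdelr3, the genes of the 3 KDEL receptors, neuroplastin (Nptn), 5 subunits of the COPI coat (Copa, Copb1, Copb2, Copg1 and Cope) and the small GTPase gene Arf1 were described across 6 RNA sequencing libraries of mice given recombinant MANF or vehicle. The genes were taken as the rows of the deposited table whose gene name equalled 1 of these 10 names. All 10 were found among 23494 genes, and all 10 were among the 12865 genes tested, whose TPM (a length-corrected share of a library's transcripts) averaged 1 or more.

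KDEL receptors sit in the Golgi and catch chaperones that have leaked out of the endoplasmic reticulum (ER), reading a short signal at the end of the protein. The loaded receptor is sorted into vesicles coated with COPI, a complex of coatomer subunits that ARF1 in its GTP-bound form recruits to the Golgi membrane, and the vesicles carry it back to the ER. MANF (mesencephalic astrocyte-derived neurotrophic factor) is a protein of the ER lumen that ends in a weak form of such a signal and can be secreted. KDEL receptors have been described to hold MANF in the cell or at its surface, and neuroplastin, a cell surface glycoprotein of the immunoglobulin superfamily, has been described as a receptor for extracellular MANF.

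The samples came from wild-type female C57BL/6 mice that all carried subcutaneous tumours of B16F10, a transplantable mouse melanoma line. In the rMANF group, mice received recombinant MANF at 2 µg/kg by daily intraperitoneal injection, and in the vehicle group phosphate-buffered saline, from the time tumours averaged about 60 mm3. Each group had 8 randomised mice and 3 libraries, labelled as biological replicates. No source used here gives the age of the mice or how 3 of 8 were chosen, and the column names of the vehicle libraries begin with IgG although the labels give the treatment as saline.

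The tissue is labelled heart, but cardiomyocyte genes were low. The 16 cardiomyocyte markers summed to 13.1 to 16.8 TPM in rMANF libraries and to 12.3 to 87.7 TPM in vehicle libraries, with Myl2, Myl3 and Myh7 at 0 in every rMANF library and Actc1 at no more than 0.905 TPM in any library. Tnnt2 was detected in all 6, at 5.95 to 8.30 TPM in rMANF libraries and 4.86 to 11.5 TPM in vehicle libraries, and vehicle replicate 2 also held Mb at 23.5 TPM, Myl2 at 14.9 TPM and Tnnc1 at 13.0 TPM. Macrophage markers were far more abundant: 15 of 15 were measured and summed to 4133 to 5003 TPM in rMANF libraries, against 5553 to 6551 TPM in vehicle libraries. Lgals3 was the most abundant of them, at 1519 to 1665 TPM in rMANF libraries and 1249 to 1450 TPM in vehicle libraries. It was the 1 marker higher in rMANF libraries, without overlap. Of the 15, 14 were lower, 8 of these without overlap, against 9.02% of all genes, with a median log2 difference of −0.52. The 20 skeletal muscle markers summed to 149 to 169 TPM in rMANF libraries, with Trdn at 0 in all 3, and to 254, 1571 and 201 TPM in vehicle replicates 1, 2 and 3. Eno3 made up most of the sum in the rMANF libraries (141 to 159 TPM), and the other 19 summed to 23.0, 9.57 and 7.77 TPM in rMANF libraries, against 129, 1399 and 31.5 TPM in vehicle libraries, with vehicle replicate 2 far above the rest. Endothelial markers (10) summed to 140.2 to 171 TPM in rMANF libraries, against 106 to 142 TPM in vehicle libraries. Of these 10, 9 were higher in rMANF libraries, 3 without overlap (18.9% of all genes), with a median log2 difference of 0.34. The most abundant, Egfl7, was the 1 on the lower side (log2 difference −0.06). Fibroblast markers (10) summed to 779 to 872 TPM in rMANF libraries, against 768 to 1089 TPM in vehicle libraries. Without Sparc, the most abundant, the other 9 fibroblast markers summed to 225, 314 and 233 TPM in rMANF libraries, against 442, 422 and 299 TPM in vehicle libraries, and over all 10 the median log2 difference was −0.51, with 8 lower and 5 of these without overlap. The 3 melanocyte markers with a row, of 7, summed to 7.44 to 10.2 TPM in rMANF libraries and 7.96 to 12.6 TPM in vehicle libraries. Nearly all of this was Mitf, at 7.36 to 10.2 TPM in rMANF libraries and 7.93 to 12.2 TPM in vehicle libraries. Pmel was at no more than 0.341 TPM and Sox10 at no more than 0.160 TPM in any library. Cell cycle genes (12) summed to 1488 to 1537 TPM in rMANF libraries and 1523 to 1647 TPM in vehicle libraries. Of these 12, 6 were higher and 6 lower in rMANF libraries, with a median log2 difference of −0.03. Without overlap 1 was higher and 4 were lower, against 18.9% and 9.02% of all genes. The libraries are therefore called libraries labelled heart. In such bulk samples, fewer cells of a type and less RNA per cell cannot be told apart, and the part of these cell type shifts in the differences that follow was not tested except where values are given.

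The receptors are paralogs, so coding sequences were compared to see how far reads could be assigned between them. The first 90 coding bases of Kdelr1 and Kdelr3, the most and the least abundant receptor, run 5′ to 3′ below, from GENCODE transcripts on GRCm38. Capitals mark the 66 positions where both genes have the same base.
Kdelr1: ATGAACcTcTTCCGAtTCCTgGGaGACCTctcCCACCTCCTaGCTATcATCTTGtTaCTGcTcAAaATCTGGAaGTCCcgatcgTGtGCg
Kdelr3: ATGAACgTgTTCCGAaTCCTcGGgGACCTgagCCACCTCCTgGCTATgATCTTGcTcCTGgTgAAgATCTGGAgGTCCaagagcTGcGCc
Over the whole coding sequence Kdelr1 and Kdelr3 were identical at 70.5% of aligned positions (455 of 645), and no stretch of 31 bases was shared between their transcripts. The same count was 0 for Arf1 against Arf2, Arf3 and Arf5, whose coding sequences were 80.6%, 83.7% and 72.5% identical to that of Arf1.

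The signal that the receptors read is encoded by the last codons before the stop. The ends of 4 classical clients, the chaperones Hspa5 (BiP), Hsp90b1 (GRP94) and Calr (calreticulin) and the disulfide isomerase P4hb, and of Manf itself, are given as the last 33 coding bases, with the 4 codons before the stop codon in capitals. Manf differs from the other 4 within those codons.
Hspa5: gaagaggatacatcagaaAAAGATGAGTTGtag
Hsp90b1: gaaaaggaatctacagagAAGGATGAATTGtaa
Calr: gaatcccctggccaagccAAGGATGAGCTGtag
P4hb: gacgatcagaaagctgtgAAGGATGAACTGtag
Manf: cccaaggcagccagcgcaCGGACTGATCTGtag

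None of the 10 genes differed between rMANF and vehicle libraries by the test across all genes. Arf1 was the 1 gene whose rMANF libraries all lay above the vehicle libraries, and Kdelr2 the 1 gene whose rMANF libraries all lay below. The median difference of the 10 genes was 0.01 on the log2(TPM + 1) scale, with 5 higher and 5 lower in rMANF libraries, and single differences lay between −0.21 for Kdelr3 and 0.14 for Arf1. Over all tested genes the median was 0.04, and 57.3% were higher in rMANF libraries.

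Differences were tested with limma, a linear model fitted to all 12865 genes, with Benjamini-Hochberg adjustment over all of them and a threshold of 0.05. Under limma 0 of the 10 genes passed, against a background of 0% (0 of 12865), and the lowest adjusted p was 0.332 among the 10 and 0.0893 among all genes. At an unadjusted p under 0.05, 0 of the 10 genes were called, against 20.5% of all genes (2642; 13.9% higher and 6.63% lower in rMANF libraries). At an adjusted p under 0.10 the counts were 0 of the 10 and 351 of all genes (2.73%). Groups did not overlap for 1 of 10 genes on the higher side, against 18.9% of all genes, and for 1 of 10 on the lower side, against 9.02%, so both shares were near or under the background.

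The count on the higher side depended on single libraries. It was 5 (Kdelr1, Copb1, Copg1, Cope and Arf1) without vehicle replicate 1, where 32.2% of all genes were higher without overlap, and 2 without rMANF replicate 2 or without rMANF replicate 3 (at least 20.7% of all genes). On the lower side it was 3 without rMANF replicate 2, and 2 without rMANF replicate 1, vehicle replicate 2 or vehicle replicate 3, with 12.4% to 15.0% of all genes lower without overlap in these 4 sets.

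**Figure D1:**
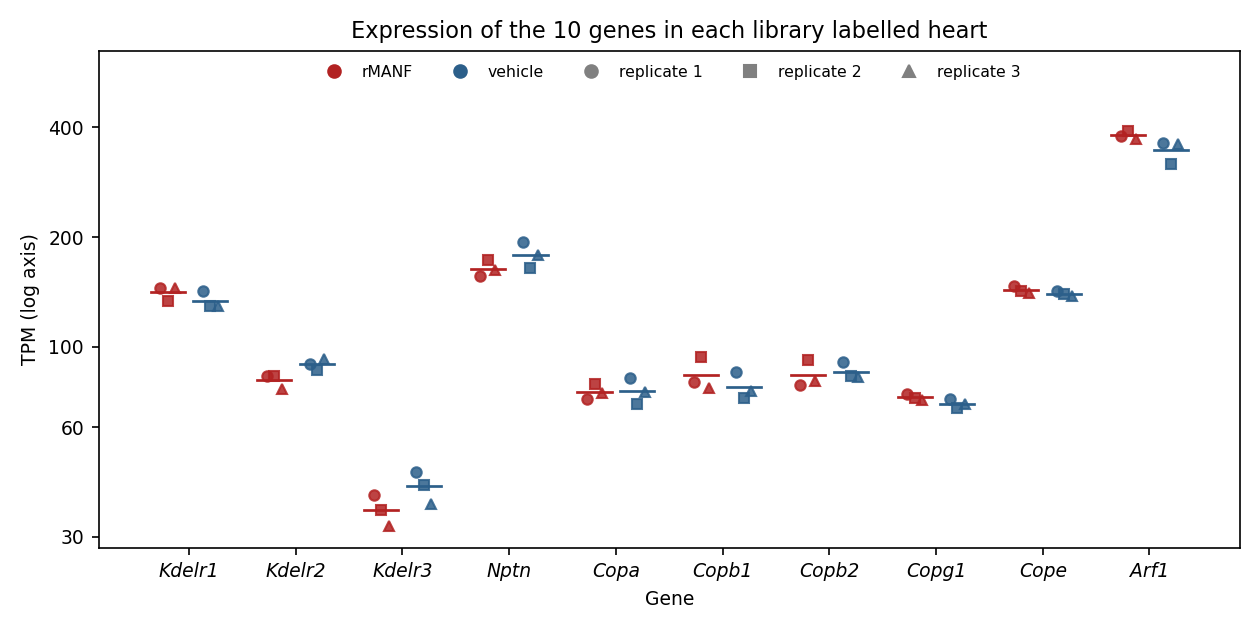
TPM on a log axis for the 10 genes, with 1 point per library (red rMANF, blue vehicle; the shape gives the replicate number) and a line at each group's mean of 3 libraries. Arf1 has the highest level, with 371 to 392 TPM in rMANF libraries and 318 to 362 TPM in vehicle libraries, and Kdelr3 the lowest.

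All 10 genes were expressed well above the median of tested genes (15.9 TPM). By the mean over the 6 libraries the order was Arf1 (364 TPM), Nptn (171), Cope (141), Kdelr1 (137), Kdelr2 (85.2), Copb2 (84.4), Copb1 (80.5), Copa (75.2), Copg1 (71.0) and Kdelr3 (38.5 TPM). The libraries of Arf1, of Nptn and of Cope did not overlap, nor did those of Kdelr1 and Kdelr2 or those of Copg1 and Kdelr3. Neighbours elsewhere in the order overlapped in range, and Kdelr2 exceeded Copb2 in 3 of 6 libraries only. Kdelr1 was thus the most abundant receptor and Kdelr3 the least, in every library of both groups.

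Kdelr1 (GRCm38 chromosome 7, 45872772 to 45883732, plus strand), the most widely expressed receptor, had 145, 133 and 145 TPM in rMANF libraries, against 142, 129.7 and 129 TPM in vehicle libraries. The groups overlapped, with rMANF replicate 2 under vehicle replicate 1. Its log2 difference of 0.08 ± 0.08 (SE, 95% interval −0.10 to 0.27) had an adjusted p of 0.615 in limma. It was 0.03 with the GC trend removed and 0.12 without vehicle replicate 1.

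Kdelr2 (chromosome 5, 143403838 to 143421901, plus strand) binds the same class of clients. It had 83.2, 83.1 and 76.6 TPM in rMANF libraries, against 89.8, 86.5 and 92.4 TPM in vehicle libraries. Every rMANF library lay below every vehicle library, and the means were 80.9 ± 3.77 and 89.5 ± 2.98 TPM (SD, n = 3 each). The log2 difference was −0.14 ± 0.08 (SE, 95% interval −0.32 to 0.04) and did not pass limma (adjusted p = 0.338). After removal of each library's trend with transcript GC content it was −0.12, and the groups then overlapped.

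Kdelr3 (chromosome 15, 79516411 to 79527739, plus strand), the receptor known to be induced by ER stress, had 39.1, 35.6 and 32.2 TPM in rMANF libraries, against 45.4, 41.6 and 37.0 TPM in vehicle libraries. The rMANF libraries were lower on average but overlapped the vehicle range, with rMANF replicate 1 above vehicle replicate 3. The log2 difference of −0.21 ± 0.11 (SE, 95% interval −0.47 to 0.05, limma adjusted p = 0.332) was the lowest of the 10. It was −0.06 without vehicle replicates 1 and 2 together.

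The total of the 3 receptors was similar in both groups, with 267, 252 and 254 TPM in rMANF libraries and 277, 258 and 259 TPM in vehicle libraries. Kdelr1 made up more of that total in rMANF libraries, with 54.3%, 52.9% and 57.1%, against 51.2%, 50.3% and 50.0% in vehicle libraries. The groups did not overlap, and the means of 54.8% ± 2.14 and 50.5% ± 0.634 (SD, n = 3 each) differed by 4.30 percentage points. By an exact two-sided permutation test this gave p = 0.1, the smallest that 3 against 3 libraries allow, and 0.2 after adjustment over the 3 receptors' shares. The difference stayed between 3.13 and 5.22 points when any 1 library was left out. Once GC trends had been taken out of each library, the shares were 53.4%, 52.6% and 56.6% in rMANF libraries and 52.7%, 50.3% and 50.1% in vehicle libraries, and the groups overlapped.

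The other receptors' shares overlapped between groups. Kdelr2 held 31.1%, 32.9% and 30.2% in rMANF libraries and 32.4%, 33.5% and 35.7% in vehicle libraries. Kdelr3 held 14.6%, 14.1% and 12.7% in rMANF libraries and 16.4%, 16.1% and 14.3% in vehicle libraries. A ratio of 2 genes inside a library does not depend on how the library is scaled. The ratio of Kdelr1 to Kdelr2 was 1.75, 1.61 and 1.89 in rMANF libraries, against 1.58, 1.50 and 1.40 in vehicle libraries, and that of Kdelr1 to Kdelr3 was 3.72, 3.75 and 4.50 against 3.12, 3.12 and 3.49. Neither ratio overlapped between groups, and they use the same values as the shares.

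**Figure D2:**
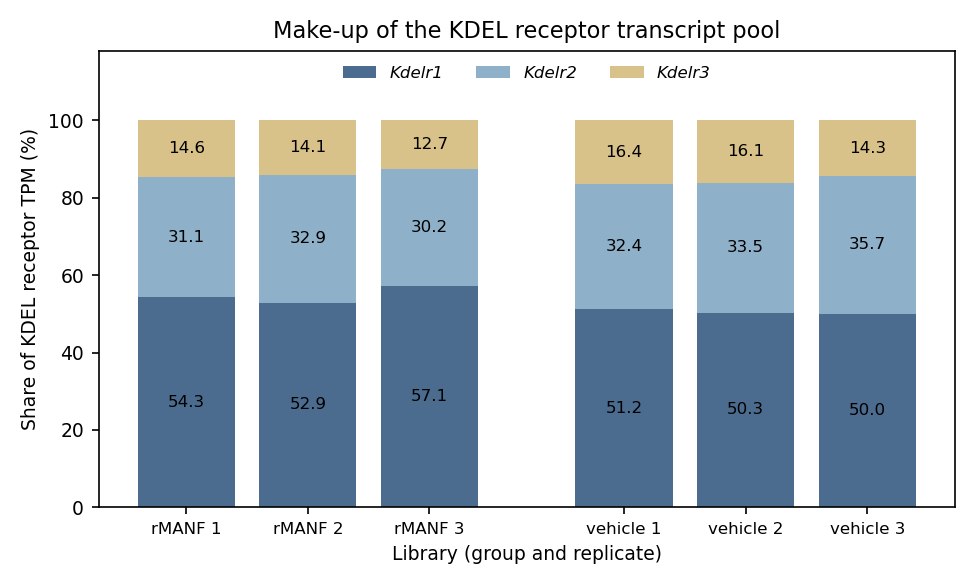
Share of the summed KDEL receptor TPM (%) held by Kdelr1, Kdelr2 and Kdelr3 in each library, rMANF replicates at left and vehicle replicates at right, with the value printed in each segment. Kdelr1 holds 52.9% to 57.1% in rMANF libraries and 50.0% to 51.2% in vehicle libraries.

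Nptn (chromosome 9, 58582240 to 58657955, plus strand) had 156, 173 and 162 TPM in rMANF libraries, against 194, 165 and 178 TPM in vehicle libraries. The groups overlapped, with rMANF replicate 2 above vehicle replicate 2. The log2 difference was −0.12 ± 0.09 (SE, 95% interval −0.33 to 0.08, limma adjusted p = 0.470). It was −0.07 without vehicle replicate 1, −0.01 with the GC trend removed (its transcript has 39.5% GC) and −0.21 with skeletal muscle RNA as a covariate. Muscle marker sums did not overlap between groups (149 to 169 TPM in rMANF and 201 to 1571 TPM in vehicle libraries). This covariate therefore cannot be cleanly separated from treatment. The span of the gene, introns included, overlaps that of Rec114, listed at 55.6 TPM, by 5106 bases on the opposite strand. How much of this stretch is exon in either gene was not measured. The library kit does not mark strand, so reads in that stretch cannot be told apart by strand.

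Neuroplastin works beside its relatives basigin (Bsg) and embigin (Emb), the plasma membrane calcium pumps, the lactate carriers that these proteins chaperone and the adaptor Traf2. Of 9 such genes 7 were tested, and 6 were higher and 1 lower in rMANF libraries, with a median difference of 0.08. Over all tested genes 57.3% were higher. With the GC trend removed 4 of the 7 were higher, 3 of these without overlap, against 17.8% of all genes. None passed limma at 0.05. Slc16a3, the lactate exporter MCT4, had the lowest p of the 7 and averaged 199.8 ± 7.17 TPM in rMANF libraries and 145 ± 10.2 TPM in vehicle libraries (SD, n = 3 each). It was, as deposited, the 1 of the 7 without overlap, against 18.9% of all genes on the higher side. Its log2 difference was 0.46 ± 0.08 (SE, limma adjusted p = 0.0893), or 0.33 with the GC trend removed.

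The COPI subunits were level between the groups in the values as deposited. The 5 summed to 450.3, 479 and 443 TPM in rMANF libraries, against 472, 432 and 440.04 TPM in vehicle libraries, and the groups overlapped for each of the 5. The log2 differences ran from −0.03 for Copb2 to 0.10 for Copb1.

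Copa (chromosome 1, 172082529 to 172122330, plus strand), the alpha subunit, which binds cargo tails in the outer layer of the coat, had 71.7, 78.8 and 74.5 TPM in rMANF libraries, against 81.9, 69.4 and 75.0 TPM in vehicle libraries. Its log2 difference was −0.01 ± 0.09 (SE, 95% interval −0.21 to 0.20). Copb2 (chromosome 9, 98563721 to 98588382, plus strand), the beta-prime subunit of the same layer, had 78.5, 92.0 and 80.3 TPM in rMANF libraries and 90.4, 83.0 and 82.4 TPM in vehicle libraries, a difference of −0.03 ± 0.09 (SE, 95% interval −0.24 to 0.18). Both genes had overlapping groups and no fixed direction: leaving out 1 library moved Copa between −0.06 and 0.05 and Copb2 between −0.10 and 0.01. The span of Copa also overlaps that of Ncstn, listed at 48.1 TPM, by 267 bases on the opposite strand, and its exon part was not measured.

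Cope (chromosome 8, 70302518 to 70312993, plus strand), the epsilon subunit, which stabilises the alpha subunit, was the most abundant of the 5. It had 146, 142 and 140.5 TPM in rMANF libraries, against 143, 139 and 138 TPM in vehicle libraries. The groups overlapped and the log2 difference was 0.03 ± 0.07 (SE, 95% interval −0.13 to 0.19). It was −0.02 with median-of-ratios scaling and −0.09 with the GC trend removed, where the rMANF libraries all lay below the vehicle libraries.

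The inner layer of the coat was represented by Copb1 and Copg1, which bind ARF1. Copb1 (chromosome 7, 114215559 to 114254711, minus strand), the beta subunit, had 79.7, 93.5 and 77.0 TPM in rMANF libraries, against 85.2, 72.2 and 75.6 TPM in vehicle libraries, a log2 difference of 0.10 ± 0.11 (SE, 95% interval −0.14 to 0.34). Leaving out rMANF replicate 2, its highest library, brought that to 0.02, and removing the GC trend to 0.18 without overlap. Copg1 (chromosome 6, 87887814 to 87913595, plus strand), the first gamma subunit, had 74.0, 72.3 and 71.2 TPM in rMANF libraries, against 71.7, 67.7 and 69.4 TPM in vehicle libraries, a difference of 0.06 ± 0.07 (SE, 95% interval −0.11 to 0.23). As deposited, the groups of both genes overlapped, and the lowest limma adjusted p among the 5 subunits was 0.639.

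The make-up of the coat transcripts was even as well in the values as deposited. With the GC trend removed, Copb1 was higher and Cope lower without overlap (log2 differences of 0.18 and −0.09). Under that correction 17.8% of all genes were higher and 10.4% lower without overlap, and coat shares were not computed. Cope held 31.3% ± 1.43 of the 5-subunit total in rMANF libraries and 31.3% ± 1.04 in vehicle libraries (SD, n = 3 each), and the shares of all 5 subunits overlapped between groups. The other 4 coatomer genes (Arcn1, Copg2, Copz1 and Copz2) overlapped too, with 1 higher and 3 lower. Copz1, the zeta subunit, was the 1 of lowest p and averaged 137 ± 7.12 TPM in rMANF libraries and 149 ± 18.2 TPM in vehicle libraries (log2 difference −0.12 ± 0.10, SE, limma adjusted p = 0.566). Leaving out vehicle replicate 1 gave Copz1 a log2 difference of −0.22, and leaving out vehicle replicate 2 one of −0.04. Over all 9 coatomer genes, as deposited, 4 were higher, 5 were lower, 0 were without overlap on either side and the median difference was −0.01.

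Arf1 (chromosome 11, 59211412 to 59228270, minus strand) had 379.8, 392 and 371 TPM in rMANF libraries, against 362, 318 and 361 TPM in vehicle libraries. Every rMANF library lay above every vehicle library, with means of 381 ± 10.2 and 347 ± 25.3 TPM (SD, n = 3 each). The lowest vehicle library, replicate 2, was also the library with the most skeletal muscle marker RNA. The log2 difference was 0.14 ± 0.08 (SE, 95% interval −0.05 to 0.32) and did not pass limma (adjusted p = 0.379). It was 0.08 without vehicle replicate 2, 0.08 with the GC trend removed and 0.05 with skeletal muscle RNA as a covariate, which cannot be cleanly separated from treatment. The groups were also without overlap under the 3 other scalings and with the GC trend removed, the alternatives that could have made them overlap.

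**Figure D3:**
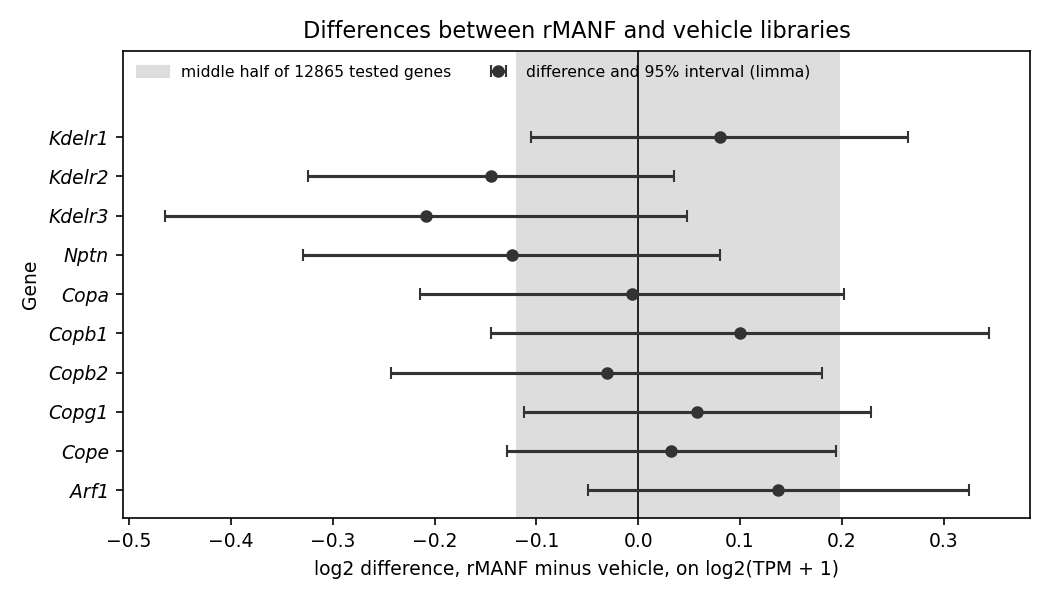
Log2 difference, rMANF minus vehicle, on log2(TPM + 1) for the 10 genes (points) with its 95% interval from limma (bars); the grey band spans percentile 25 to percentile 75 of all 12865 tested genes, −0.12 to 0.20. Each interval includes 0, and the points run from −0.21 for Kdelr3 to 0.14 for Arf1.

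Ratios between the 10 genes separated the groups about as often as ratios of any tested genes. Of 45 pairs, 15 (33.3%) had ratios that did not overlap between groups, against 28.5% of all pairs of tested genes, so the ratios that follow are descriptions. Within the COPI coat it was 2 of 10 pairs. The ratio of Copb1 to Copb2 was 1.02, 1.02 and 0.958 in rMANF libraries, against 0.942, 0.869 and 0.918 in vehicle libraries. That of Copg1 to Cope was 0.505, 0.508 and 0.507 in rMANF libraries, against 0.502, 0.485 and 0.505 in vehicle libraries, so the nearest libraries of the groups almost touched.

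Of the 9 ratios with Arf1, those of Kdelr2, Nptn and Copa were without overlap. The ratio of Kdelr2 to Arf1 was 0.219, 0.212 and 0.206 in rMANF libraries, against 0.248, 0.272 and 0.256 in vehicle libraries. The ratio of Nptn to Arf1 was 0.411, 0.442 and 0.436 in rMANF libraries, against 0.536, 0.518 and 0.494 in vehicle libraries. The ratio of Copa to Arf1 was 0.189, 0.201 and 0.201 in rMANF libraries, against 0.227, 0.219 and 0.208 in vehicle libraries. The ratio of Nptn to Copa was 2.17, 2.20 and 2.18 in rMANF libraries and 2.36, 2.37 and 2.38 in vehicle libraries, without overlap, while the log2 differences of the 2 genes were both −0.01 once the GC trend was removed.

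The ARF machinery around Arf1 lay on the higher side in rMANF libraries. Of 12 tested genes for other ARF GTPases, their exchange factors and their GTPase-activating proteins, 11 were higher and 1 lower, with a median difference of 0.23. In 9 of 12 the rMANF libraries lay above the vehicle libraries without overlap, against 18.9% of all genes, and in 0 below. The list was chosen with earlier results of these data known, so these counts are a description and not a test. No gene of the list passed limma at 0.05, 6 had an unadjusted p under 0.05 (20.5% of all genes) and 1, Arf6, had an adjusted p under 0.10. With the GC trend removed the median was 0.21, and 10 were higher, 9 of them without overlap, against 17.8% of all genes under that correction.

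Arf6, the ARF of the plasma membrane and endosomes, averaged 260.4 ± 3.57 TPM in rMANF libraries and 188 ± 18.0 TPM in vehicle libraries (SD, n = 3 each). Its log2 difference was 0.48 ± 0.09 (SE, limma adjusted p = 0.0893), or 0.26 with the GC trend removed. Arfgap1 and Arfgap2 end the ARF1 cycle on COPI vesicles by triggering GTP hydrolysis. Arfgap1 averaged 29.7 ± 0.525 TPM in rMANF libraries and 23.0 ± 1.88 TPM in vehicle libraries (log2 difference 0.36 ± 0.09, SE, limma adjusted p = 0.114). Arfgap2 averaged 47.6 ± 1.98 TPM in rMANF libraries and 36.9 ± 4.53 TPM in vehicle libraries (log2 difference 0.36 ± 0.11, SE, limma adjusted p = 0.133).

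The closest relatives of Arf1 were looked at after their values had been seen. Arf3 averaged 74.0 ± 2.34 TPM in rMANF libraries and 59.4 ± 6.58 TPM in vehicle libraries, and Arf5 353 ± 11.0 TPM in rMANF libraries and 312 ± 26.7 TPM in vehicle libraries, both without overlap between groups. Arf2 averaged 88.7 ± 8.12 TPM in rMANF libraries and 73.2 ± 7.40 TPM in vehicle libraries, with overlap. Arf4, the 1 gene of the list on the lower side, averaged 145 ± 9.62 TPM in rMANF libraries and 156 ± 11.5 TPM in vehicle libraries, with overlap. The limma adjusted p was 0.144 for Arf3, 0.271 for Arf5, 0.201 for Arf2 and 0.560 for Arf4. Arf5 had a difference of 0.18 as deposited and of −0.03 with the GC trend removed.

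Among receptors for other cargo, 12 genes were tested, and 7 were higher and 5 lower in rMANF libraries, with 2 on each side without overlap, against 18.9% (higher) and 9.02% (lower) of all genes, and a median of 0.02. Surf4, which exports soluble cargo from the ER, averaged 153 ± 3.40 TPM in rMANF libraries and 131 ± 2.75 TPM in vehicle libraries (log2 difference 0.22 ± 0.07, SE, limma adjusted p = 0.149), and its difference was 0.13 with the GC trend removed. Ergic3, a membrane protein that cycles between ER and Golgi, averaged 158 ± 6.40 TPM in rMANF libraries and 136 ± 11.0 TPM in vehicle libraries (adjusted p = 0.212 in limma), with a log2 difference of 0.22 as deposited and 0.09 with the GC trend removed. Bcap31, an ER protein that sorts membrane proteins, lay on the lower side, with 421 ± 15.9 TPM in rMANF libraries and 490.1 ± 9.39 TPM in vehicle libraries (log2 difference −0.22 ± 0.07, SE, limma adjusted p = 0.152). Rer1, which retrieves membrane proteins to the ER by COPI and was named after its values were seen, averaged 132 ± 2.34 TPM in rMANF libraries and 149.7 ± 4.08 TPM in vehicle libraries (adjusted p = 0.213 in limma). Of the 8 p24 proteins, cargo receptors that bind COPI and COPII, 6 were higher and 2 lower with a median of 0.04. Tmed9 was the 1 without overlap, at 181 ± 5.09 TPM in rMANF libraries and 159 ± 12.1 TPM in vehicle libraries (limma adjusted p = 0.251).

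COPII, the coat of the outward route from the ER, had 16 of 18 genes tested. Of these 10 were higher and 6 lower in rMANF libraries, 3 were higher without overlap, a share like the 18.9% of all genes, and the median was 0.06. The 3 are described by their values only. Sec16a, the scaffold of ER exit sites, averaged 18.6 ± 0.490 TPM in rMANF libraries and 14.3 ± 1.41 TPM in vehicle libraries (log2 difference 0.36 ± 0.10, SE, limma adjusted p = 0.128). The cargo adaptor Sec24c (42.9 ± 1.07 TPM in rMANF and 38.2 ± 1.82 TPM in vehicle libraries) and the outer coat subunit Sec31a (55.1 ± 1.67 TPM in rMANF and 49.3 ± 2.43 TPM in vehicle libraries) were the others. Their limma adjusted p-values were 0.301 and 0.312.

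Tethers, SNAREs, Rab GTPases and other genes of transport between ER and Golgi were spread about 0. Of 22 tested genes 13 were higher and 9 lower in rMANF libraries, with 2 higher and 1 lower without overlap, fewer than the 18.9% and 9.02% of all genes, and a median of 0.02. Golga2, the Golgi tether GM130, averaged 28.2 ± 1.45 TPM in rMANF libraries and 23.3 ± 2.91 TPM in vehicle libraries (log2 difference 0.27 ± 0.11, SE, limma adjusted p = 0.225), or 0.17 without vehicle replicate 2 and with the GC trend removed. The SNARE Gosr2 averaged 51.8 ± 2.67 TPM in rMANF libraries and 48.1 ± 0.919 TPM in vehicle libraries, and the SNARE Sec22b 38.2 ± 1.81 TPM in rMANF libraries and 42.1 ± 1.58 TPM in vehicle libraries (limma adjusted p = 0.496 and 0.379). The log2 difference of Sec22b was −0.14, or −0.07 with the GC trend removed.

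Proteins of the ER lumen and secretory pathway, among them classical KDEL receptor clients, lay on both sides. Apart from the 5 ends shown above, the retrieval signal of the listed genes was not checked, and some may lack it. Of 29 tested genes among 32 listed, 16 were higher and 13 lower in rMANF libraries, 7 and 3 of them without overlap (18.9% and 9.02% of all genes), and the median was 0.04, as over all tested genes. None passed limma at 0.05 and 6 had an unadjusted p under 0.05 (20.5% of all genes), so these shares were near the background. The 3 of lowest p among those without overlap were all higher in rMANF libraries. Cercam, a relative of the collagen galactosyltransferases, averaged 8.95 ± 0.944 TPM in rMANF libraries and 6.10 ± 0.428 TPM in vehicle libraries (log2 difference 0.48 ± 0.12, SE, limma adjusted p = 0.111). Plod3, a lysyl hydroxylase, averaged 67.0 ± 0.606 TPM in rMANF libraries and 52.4 ± 5.39 TPM in vehicle libraries (log2 difference 0.35 ± 0.09, SE, limma adjusted p = 0.116), or 0.19 with the GC trend removed. Fkbp10, a prolyl isomerase and collagen chaperone, averaged 68.5 ± 1.53 TPM in rMANF libraries and 50.9 ± 11.0 TPM in vehicle libraries (log2 difference 0.44 ± 0.14, SE, limma adjusted p = 0.152), or 0.29 with the GC trend removed. Of the 10 fibroblast markers, which include collagen genes, 8 were lower in rMANF libraries, and their part in these values was not tested.

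The genes on the lower side without overlap were named after their values were seen. The disulfide isomerase Pdia3 averaged 294 ± 8.39 TPM in rMANF libraries and 352 ± 77.9 TPM in vehicle libraries (limma adjusted p = 0.387), where replicate 1 had 441 TPM and the others 304 and 309 TPM. The ER protein Erp29 averaged 27.1 ± 0.722 TPM in rMANF libraries and 31.4 ± 3.52 TPM in vehicle libraries (limma adjusted p = 0.314). Endogenous Manf had 80.4, 75.4 and 77.2 TPM in rMANF libraries, against 106, 92.6 and 81.0 TPM in vehicle libraries. All 3 rMANF libraries lay below the vehicle libraries, which spread from 81.0 to 106 TPM, and the log2 difference was −0.25 ± 0.11 (SE, limma adjusted p = 0.238). Without vehicle replicate 1 it was −0.16 for Manf, −0.06 for Pdia3 and −0.11 for Erp29, and for Manf it was −0.06 without vehicle replicates 1 and 2 together.

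**Figure D4:**
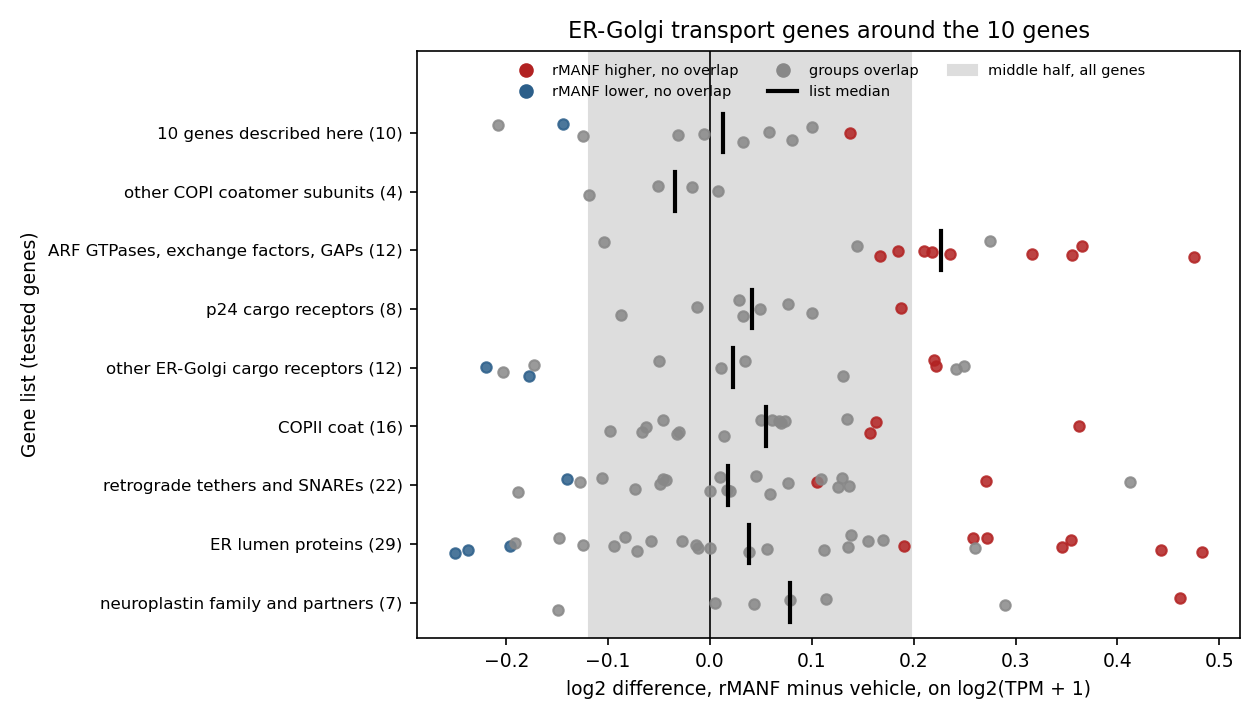
Log2 difference, rMANF minus vehicle, on log2(TPM + 1) for each tested gene of the 10 genes described here and of the surrounding ER-Golgi lists, with the number tested in brackets. Red points have all rMANF libraries above and blue points all below the vehicle libraries, black bars are list medians, and the ARF list has its median at 0.23 and 9 of 12 points in red. The lists were chosen with earlier results of these data known.

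The profile of each receptor and of Nptn over the 6 libraries was set beside those of 7566 genes averaging 10 TPM or more. Likeness was the mean absolute difference between profiles scaled to SD 1, where 0 is an identical course. Nearest to Kdelr1 was Gorasp2, a Golgi stacking protein, at 0.0619 SD, against a median of 0.985 SD over all genes compared. It was followed by Uqcc2 (0.162 SD) and Pdlim4 (0.168 SD). Kdelr2 was nearest to Pdcl3 (0.0848 SD), Donson (0.118 SD) and Slfn5 (0.134 SD). Kdelr3 was nearest to Magoh (0.0776 SD), Cacybp (0.105 SD) and Kpna3 (0.107 SD). Nptn was nearest to Oxct1 (0.0919 SD), Snx24 (0.127 SD) and Timm21 (0.127 SD). The nearest of 7566 genes lies below their median by construction, and how near it would lie by chance was not tested. No gene stood among the nearest 3 of more than 1 member, and with 6 libraries these are descriptions only.

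The promoters were searched for elements of the unfolded protein response, since several of these genes are known targets of it. RefSeq promoter windows on GRCm38.p6 (250 bases before to 50 after the start) were found for 9 of the 10 genes. The core TGACGTGG, bound by XBP1 and ATF6, was found on either strand in 222 of 32851 windows (0.676%), among them windows of 4 of the 9 genes, Kdelr3, Copb1, Copb2 and Arf1. Over all listed ER-Golgi genes with a window it was found for 10 of 108, these 4 included. The 0.676% counts windows, and a gene can have more than 1. The full ER stress element (CCAAT, any 9 bases, CCACG) was in 0.119% of windows and the second ER stress element (ATTGG, any 1 base, CCACG) in 0.0365%, and neither was in a window of the 9 genes. The first was in the windows of the clients Hspa5, Hsp90b1, Calr and Pdia6.

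The windows of Kdelr3 and Arf1 are shown because these genes hold the same core and had the lowest and the highest difference of the 10. They run 5′ to 3′ on the gene's strand, with the core in capitals, which reads as its reverse complement in Kdelr3. It begins 30 bases before the start of Kdelr3. Arf1 has 2 windows with different starts, and the core begins 21 bases after the start of the window shown and 84 bases before that of the other. The Kdelr3 window is chr15:79516158-79516457 (plus strand) and the Arf1 window chr11:59228218-59228517 (minus strand).
Kdelr3: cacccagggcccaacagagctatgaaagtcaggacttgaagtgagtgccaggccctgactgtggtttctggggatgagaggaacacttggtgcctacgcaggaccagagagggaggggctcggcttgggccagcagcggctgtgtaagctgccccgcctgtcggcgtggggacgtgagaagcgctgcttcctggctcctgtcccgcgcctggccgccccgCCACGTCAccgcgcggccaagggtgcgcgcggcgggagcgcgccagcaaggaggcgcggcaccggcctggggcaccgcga
Arf1: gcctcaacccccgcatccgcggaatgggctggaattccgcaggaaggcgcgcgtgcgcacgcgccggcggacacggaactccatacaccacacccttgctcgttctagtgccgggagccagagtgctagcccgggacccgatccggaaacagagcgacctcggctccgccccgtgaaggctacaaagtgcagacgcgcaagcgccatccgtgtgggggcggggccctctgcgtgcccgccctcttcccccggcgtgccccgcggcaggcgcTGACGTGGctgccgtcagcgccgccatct
In Copb1 and Copb2 the core lay 28 and 7 bases before the start on the opposite strand. The 4 genes that share it had log2 differences of −0.21 (Kdelr3), 0.10 (Copb1), −0.03 (Copb2) and 0.14 (Arf1). The 95% interval of each included 0, and differences among the 4 were not tested.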

How the data were processed

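RNA was measured in 6 libraries labelled heart, 3 rMANF and 3 vehicle. Per the labels' protocols, total RNA was taken with QIAzol and libraries were made with Nextera XT. The submitters' processing notes name Salmon 0.14.1, HTSeq 0.11.0, cutadapt and fastp, and build mm10; no source used here says which of them gave the final values or with what annotation. The table deposited by the authors gives log2 TPM (transcripts per 1e6) for 23494 genes, with −9 where a gene had 0 TPM, and 2 to the power of these values came to 1e6 per library within 19.5 TPM. TPM keeps no read number, so depth is unknown and precision is that of the spread between libraries.

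Differences, rMANF minus vehicle, were computed here on log2(TPM + 1), a scale that shrinks the changes of genes at low levels. The 12865 genes averaging 1 TPM or more entered a limma fit (version 3.58.1, R 4.3.3; no covariates, empirical Bayes with a trend, two-sided, Benjamini-Hochberg over all genes, threshold 0.05), a procedure first tested on simulated data. P-values rest on 3 libraries per group. The 10 genes and the gene lists were chosen with earlier results of these data known. Genes named from the lists are those whose groups did not overlap, up to 3 of lowest p, or else the 1 of lowest p, plus the 3 nearest profiles; others are marked as chosen after their values were seen. Alternatives were the pseudocount, the filter, scaling, variance model, library weights, replicate block, muscle covariate, removal of the GC trend (loess, GC known for 99.7% of tested genes) and leaving out libraries. Coordinates and coding sequences are from GENCODE on GRCm38 and promoters from RefSeq; protein sequences were not used here, and the coding sequence of Kdelr2 is not reported here.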

Additional observations from a re-analysis of the deposited data

How the results depend on the processing

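Over 21 alternatives, 200 of 210 differences of the 10 genes kept their direction and their side of the threshold and 10, in 3 genes, reversed, all within 0.09 of 0: Copa (−0.064 to 0.054 when 1 library was left out, above 0 without rMANF replicate 1 or vehicle replicate 1), Copb2 (0.015 with the GC trend removed, with or without the replicate block, and 0.017 without vehicle replicates 1 and 2 together; −0.10 to 0.012 when 1 library was left out) and Cope (−0.020 with median-of-ratios scaling, −0.088 with the GC trend removed, with or without the replicate block). Kdelr1 ranged from 0.03 to 0.13, Kdelr2 from −0.20 to −0.11, Kdelr3 from −0.28 to −0.06, Nptn from −0.21 to −0.01, Copb1 from 0.02 to 0.18, Copg1 from 0.01 to 0.08 and Arf1 from 0.05 to 0.18. The causes of these moves were not tested. No alternative called any of the 10 genes, the adjusted p threshold of 0.10 included. Over all genes limma called 0, against 737 with library weights, 3 with a replicate block, 1 with the GC trend removed, 6 without vehicle replicates 1 and 2 together, 351 at an adjusted p under 0.10 and 0 to 18 when 1 library was left out, the highest without vehicle replicate 1. With the GC trend removed, with or without the replicate block, 2 members were higher without overlap (Copb1 and Arf1), against 17.8% of all genes. Median-of-ratios scaling put 3 members lower without overlap (Kdelr2, Nptn and Copa), against 14.3% of all genes. With 1 library left out, 1 to 5 members were higher without overlap, against 20.7% to 32.2% of all genes. On the lower side these sets gave 1 to 3 members, against 10.6% to 15.0% of all genes. Leaving out vehicle replicates 1 and 2 together keeps 1 vehicle library, so overlap is not counted there. Fewer libraries overlap less by construction.

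Of 819 differences of 39 further genes, 810 did not change, 5 reversed (Arf5 −0.025 and Kpna3 0.011 with the GC trend removed, each with or without the replicate block, and Arf4 at 0.0037 without vehicle replicates 1 and 2 together) and 4 passed the threshold with library weights (limma adjusted p = 0.0325 for Arf6, 0.0408 for Cercam, 0.0260 for Fkbp10 and 0.0266 for Slc16a3). Replicate numbers pair nothing by the labels, and same-numbered libraries deviated from their group means with r of −0.07, 0.03 and 0.05 across genes; the block changed no call among the 10 genes. The alternatives on the Kdelr1 share, which differed by 3.21 points with the GC trend removed and by 4.83 without vehicle replicates 1 and 2, were chosen after seeing the data. Scaling alternatives moved the median of all genes from 0.04 to between −0.01 and 0.02.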
